A study of Mus musculus with 18 samples.

Results

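Foxp3+ regulatory T cells and CD4-only T cells of the mouse small-intestinal lamina propria (LP) were compared by RNA sequencing. The comparison takes 6 of the 18 libraries of the series, chosen by their labels alone: 3 of Foxp3+ cells (LP TR) and 3 of cells sorted as CD4+ but negative for CD8α and for the Foxp3-GFP reporter (LP SP). Of the 38392 genes in the table, 13886 reached a normalised count of 10 in at least 3 of these 6 libraries and were tested. Both groups started from the same kind of cell. Donors were C57BL/6 mice carrying both receptor chains of a pTreg clone (TNa and TNb), lacking RAG1 (RAG1-/-) and bearing the Foxp3-GFP reporter. Their CD4+ CD8α- Foxp3-GFP- cells were injected into C57BL/6 TCRa-/- TCRb-/- hosts and recovered 6 weeks later. The LP TR cells had therefore switched on Foxp3 after transfer, while the LP SP cells had converted neither to Foxp3+ nor to CD8α+ cells. The hosts lack αβ T cells of their own but keep B cells and γδ T cells, and every library stems from 1 clonal receptor, which limits both groups as models of a normal repertoire. The labels speak of biological replicates without tying a library to an animal, so the p-values below measure the spread between libraries.

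Foxp3 is the transcription factor that sets the regulatory programme of CD4 T cells, with Ikzf2 (Helios), Ctla4 and the interleukin-2 receptor chain Il2ra among the genes usually found with it. Regulatory cells that arise outside the thymus settle in the gut lamina propria, where they make interleukin-10, restrain responses to food and microbes and can carry the tissue-repair factor amphiregulin. CD4 T cells that do not take this route in the gut can instead acquire features of intraepithelial or cytotoxic lymphocytes, such as granzymes, perforin and the chemokine Ccl5.

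The sort and the clonal receptor were visible in the data. Foxp3 stood at 112, 157 and 138 normalised counts in LP TR and at 0, 2.99 and 10.4 in LP SP. Because Foxp3 defined the sort, this is a check of the labels and not a result. Cd8a, the marker excluded from LP SP, was between 9.74 and 22.3 in all 6 libraries, against 3364 to 3744 in the CD4+CD8α+ cells of the lamina propria. The beta-chain segment Trbv19 gave 95.6% to 98.1% of all counts on the beta V segments, and the Trav14 family, whose copies are close enough for reads to be split among them, gave 93.2% to 98.5% of the alpha V counts. Libraries held 5093955 to 7984462 reads, and mitochondrial transcripts took 2.07% to 2.76%. The first principal component, 47.5% of the variance, put the 3 LP TR libraries between -55.7 and -53.3 and the 3 LP SP libraries between 51.9 and 56.1.

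Markers of T cells summed to 19830 to 23680 in LP TR and 21060 to 23540 in LP SP. Cd3d, Cd3e, Cd3g, Cd247, Lck and Lat did not pass the test, while the adhesion receptor Cd2 was higher and Thy1 lower in LP TR. The 10 markers of B and plasma cells summed to 623 to 1704 in LP TR and 59.7 to 101 in LP SP. Ighm, the IgM heavy chain, was at 477, 693 and 455 in LP TR against 3.51, 21.6 and 30.1 in LP SP, and Cd79b was called higher as well, whereas Ms4a1 (CD20), which defines B cells, was at 0 to 6.09 in every library. Igj and Igkc were at 471 and 383 in LP TR 2 and at no more than 32.9 elsewhere. The sum of the 4 γδ T-cell genes ran the other way, at 1.08 to 8.70 in LP TR and 165 to 274 in LP SP. Most of it was Tcrg-C4 (159 to 207 in LP SP), the only one called. Tcrg-C1, too low to be tested, was at 0, 0 and 1.22 in LP TR and 5.86, 50.75 and 47.52 in LP SP. Tcrg-C2 overlapped between the groups and Sox13 was at 0 in all 6 libraries. Trdc, the δ-chain constant gene, was not found by that symbol. The summed markers of innate lymphoid and NK cells were also lower in LP TR (11.2 to 79.1 against 153 to 223), with the NK receptor Ncr1 at 0 throughout. Myeloid markers summed to 95.8 to 109 in LP TR and 191 to 570 in LP SP, the highest sum coming from LP SP 2, where Lyz2 reached 315. Of the epithelial markers, Krt19, Apoa1, Apoa4 and Muc2 were at 0 in all 6 libraries, the summed level overlapped between the groups (180 to 293 against 132 to 400), and Cdh1 was lower in LP TR. In stroma and endothelium Col3a1, Pdgfra and Dcn were at 0, and Pecam1 was lower in LP TR. The part of these cell types in the results below was not tested. In such bulk libraries, fewer cells of a type and less RNA per cell cannot be told apart.

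**Figure D1:**
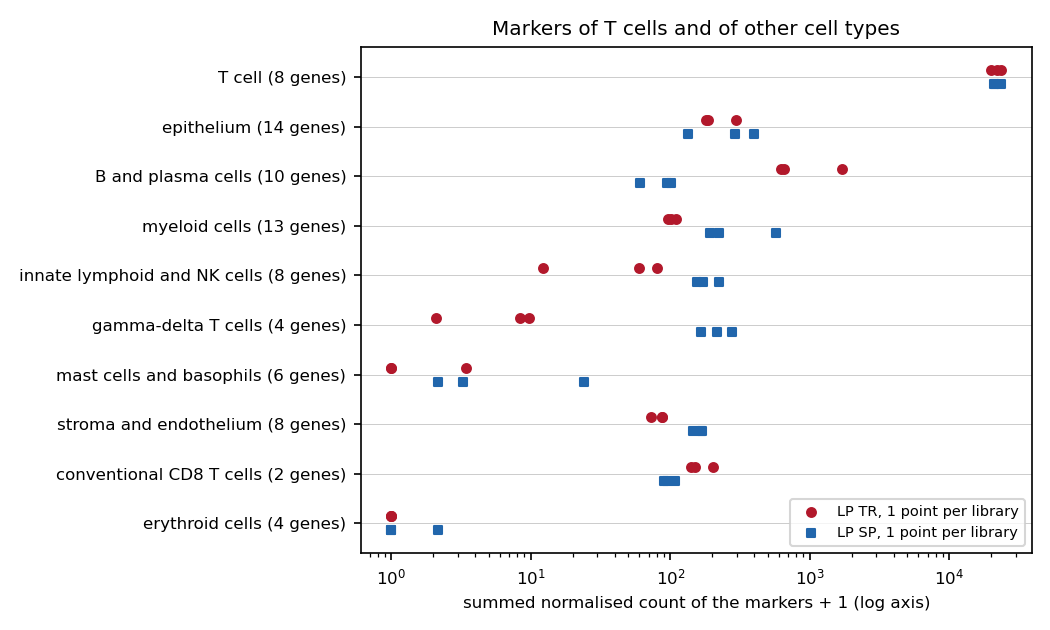
Summed normalised count of the markers of T cells and of 9 other cell types (horizontal log axis, 1 added) in each LP TR library (circles) and LP SP library (squares). The T-cell sums of all 6 libraries lie between 19830 and 23680, B and plasma cell markers are higher in LP TR, and γδ T-cell, innate lymphoid and myeloid markers are higher in LP SP.

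Between Foxp3+ and CD4-only cells 927 genes passed limma at an adjusted p under 0.05, which is 6.68% of the genes tested. Higher in LP TR were 527 genes (3.80%), Foxp3 among them, and 400 (2.88%) were lower. The change was at least 2-fold in 408 of the higher and 308 of the lower genes, and at least 8-fold in 125 and 94. The median log2 change over all genes tested was -0.004. In all 927 the 3 LP TR values lay on one side of the 3 LP SP values, which passing the test nearly requires. Over all genes tested 13.9% had every LP TR library above every LP SP library, and 12.3% had every one below. Leaving out any single library lowered the count to between 506 (without LP TR 1) and 682 (without LP SP 1), with the lower genes at their fewest, 198, without LP SP 3, and 377 genes kept their call in each of these 6 fits.

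**Figure D2:**
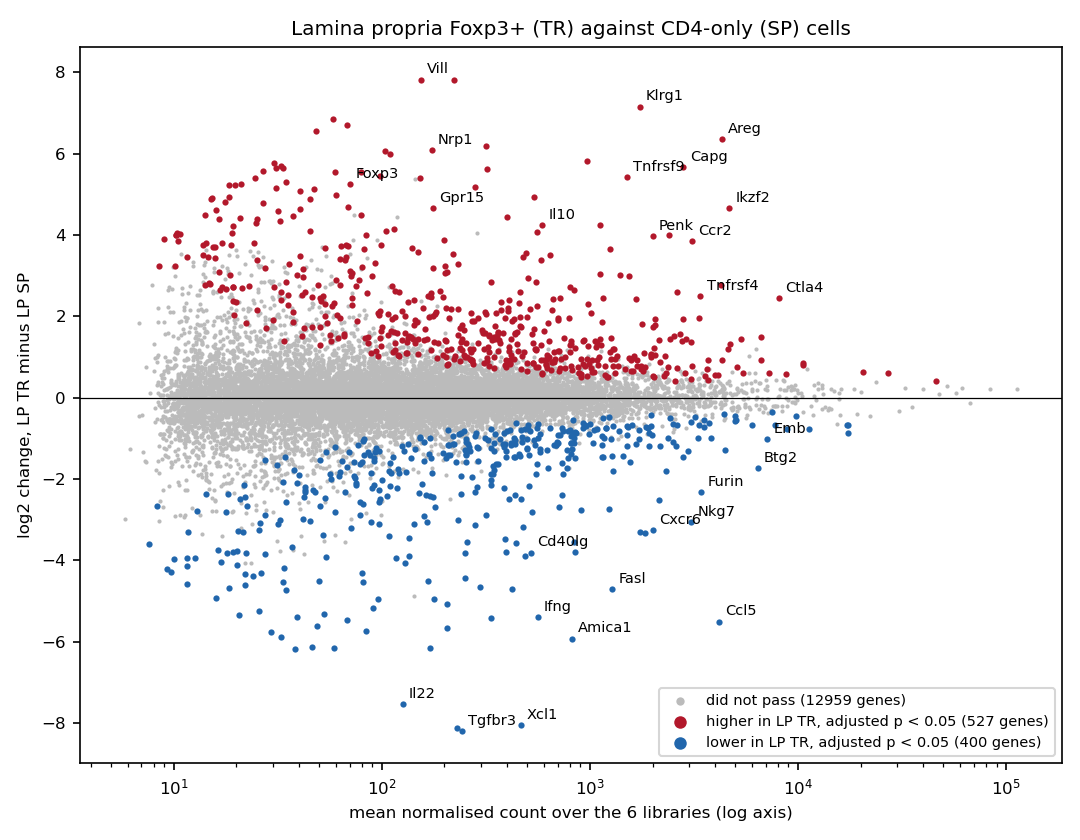
Log2 change between LP TR and LP SP (vertical axis) against the mean normalised count over the 6 libraries (horizontal log axis) for the 13886 genes tested. The 527 genes higher in LP TR are red, the 400 lower genes blue and the rest grey, with Areg, Klrg1 and Ikzf2 far above the other abundant genes and Ccl5, Xcl1 and Tgfbr3 far below. Foxp3 is marked for orientation only, since it defined the sort.

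The genes usually found with Foxp3 were higher in LP TR. Of the other 19 regulatory core genes tested, 15 rose, 0 fell, and their median log2 change was 3.55, against -0.004 over all genes and 3.80% of all genes called higher. With 1 library left out, 12 to 14 were called higher. Ikzf2, the zinc-finger factor Helios, had 10177, 8271 and 8381 normalised counts in LP TR and 493, 187 and 461 in LP SP. The lowest LP TR value was thus far above the highest LP SP value, a log2 change of 4.67 ± 0.35 (SE, limma adjusted p = 4.5e-04). Its relative Ikzf4 (Eos) was at 384, 317 and 414 against 31.6, 16.4 and 27.8, a change of 3.87 ± 0.30. Nrp1, a semaphorin co-receptor carried mostly by regulatory cells of thymic origin, was at 272, 428 and 328 in LP TR and 2.34, 2.99 and 8.11 in LP SP. This was a log2 change of 6.09 ± 0.44 (limma adjusted p = 4.2e-04). Per the labels, the cells transferred were Foxp3-GFP-.

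Ctla4, the inhibitory receptor that strips CD80 and CD86 from antigen-presenting cells, was among the most abundant genes to rise. It had 16211, 14740 and 10261 normalised counts in LP TR and 2938, 1891 and 2716 in LP SP, a log2 change of 2.45 ± 0.22 (limma adjusted p = 9.1e-04). Its level in LP SP was therefore not low. The TNF receptors Tnfrsf18 (GITR) and Tnfrsf4 (OX40) showed the same arrangement. Tnfrsf18 was at 4740, 4117 and 4497 against 1209, 1135 and 1152, and Tnfrsf4 at 5350, 5133 and 6801 against 1081, 1183 and 809. Tnfrsf9 (4-1BB) was lower than these in LP SP, with 2457, 1506 and 4871 against 44.5, 29.1 and 166, a change of 5.42 ± 0.66 (limma adjusted p = 0.0032).

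Capg, an actin-capping protein, rose from 164, 74.6 and 99.7 in LP SP to 5978, 5511 and 5081 in LP TR, a log2 change of 5.68 ± 0.27. Lrrc32 (GARP), which holds latent TGF-beta on the surface of regulatory cells, was at 176, 211 and 262 against 3.51, 2.99 and 1.16. The orphan receptor Gpr83 was at 70.3, 142 and 79.1 in LP TR and at 0 in all 3 LP SP libraries. Its LP TR mean was 31.6-fold the LP SP floor of 3 reads per library. The folate receptor homologue Folr4, 661 to 1062 against 49.2 to 95.5, and the maturation marker Cd83, 852 to 3758 against 54.5 to 162, were called as well. Il2ra rose by the smaller log2 change of 1.39 ± 0.32, from 226, 395 and 418 to 722, 716 and 1320 (limma adjusted p = 0.043), and lost its call whichever of the 6 libraries was left out, with adjusted p up to 0.097. The 4 core genes that did not pass were Il2rb (log2 change -0.73), Nt5e (0.53), Itgb8 (3.72, adjusted p = 0.23) and Swap70 (0.13).

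Genes of gut effector regulatory cells rose in 13 of 22 cases tested (59.1%, against 3.80% of all genes) and fell in 0. Their median log2 change was 1.69, with 11 to 13 calls when 1 library was left out. The smallest adjusted p of the whole comparison, 4.7e-06, was shared by Areg and Ccl5. Areg, the EGF-receptor ligand amphiregulin, had 8130, 8853 and 8521 normalised counts in LP TR and 111, 124 and 80.0 in LP SP, a log2 change of 6.35 ± 0.18. The 3 libraries of a group differed little from each other beside the distance between the groups. Klrg1, an inhibitory receptor whose ligand is E-cadherin, was at 3552, 3083 and 3710 against 37.5, 20.1 and 16.2, a change of 7.16 ± 0.30 (limma adjusted p = 5.3e-05). Il1rl1, the interleukin-33 receptor ST2, was at 956, 1262 and 978 against 69.1, 116 and 125. All 3 genes were thus high in each LP TR library.

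Il10, the anti-inflammatory cytokine, was at 1459, 1219 and 684 in LP TR and 62.1, 55.2 and 48.7 in LP SP, a log2 change of 4.25 ± 0.29 (limma adjusted p = 3.5e-04). Ebi3, the subunit shared by interleukin-27 and interleukin-35, was at 545, 660 and 672 against 14.1, 29.8 and 3.48. Its partner Il12a was too low to be tested. Maf, a transcription factor that drives Il10, rose by 1.56 ± 0.15, and Gata3 by 1.82 ± 0.32, the latter losing its call without LP SP 1 (adjusted p = 0.052) and without LP SP 3 (adjusted p = 0.062). Penk, which encodes the precursor of the enkephalin peptides, varied most among the LP TR libraries, with 2708, 1201 and 7518 against 287, 200 and 107, yet the groups did not overlap and the call held (limma adjusted p = 0.011). Icos, Tigit, Fgl2, Havcr2 and Dgat2 also rose, of which Icos (log2 change 0.59, adjusted p = 0.04999) passed by the least margin and lost its call when any library but LP TR 3 was left out. Dgat2 did so without LP TR 3 (adjusted p = 0.051). Prdm1, Batf, Irf4, Ccr8, Lag3, Pdcd1, Tnfrsf8, Gzmb and Rora did not pass.

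Outside these lists, Vill, a villin-like actin-binding protein, showed the largest rise. It was at 278, 348 and 295 in LP TR and 0, 1.49 and 0 in LP SP, a log2 change of 7.82 ± 0.46. Laptm4b, a lysosomal membrane protein, followed with 327, 359 and 640 against 0, 0 and 5.80. Ncmap (106, 99.5 and 144 in LP TR) and the gap-junction gene Gjb2 (158, 31.1 and 218) were at 0 in all 3 LP SP libraries. Their LP TR means were 37.8-fold and 44.1-fold the LP SP floor of 3 reads per library. For Gjb2, LP TR 2 lay well below the mean. Cybb, a subunit of the phagocyte NADPH oxidase, was at 478, 576 and 822 against 4.69, 5.97 and 13.9. Sdc4, a heparan sulphate proteoglycan, was at 1990, 1319 and 2414 against 25.8, 67.2 and 18.5. The most abundant genes to rise by at least 2-fold included, besides Ikzf2 and Ctla4, the polyamine enzyme Odc1 (9698 to 9881 against 2694 to 4349), the intermediate filament Vim and the histone variant H2afz. Vim lost its call without LP SP 1, LP SP 3, LP TR 1 or LP TR 2, with adjusted p up to 0.095. By the GENCODE annotation of mm10, the leading genes are spread over the genome, with Ikzf2 at chr1:69531214-69687245, Klrg1 at chr6:122270596-122282882, Vill at chr9:119052778-119071525, Tgfbr3 at chr5:107106570-107289629 and Ccl5 at chr11:83525778-83530518.

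Genes of cytotoxic lymphocytes and their chemokines went the opposite way. Of 20 tested, 11 fell and 1 rose, with a median log2 change of -1.82, against 2.88% of all genes called lower, and 9 to 12 fell when 1 library was left out. Ccl5 (RANTES) had 180, 177 and 175 normalised counts in LP TR and 8355, 6702 and 9475 in LP SP, a log2 change of -5.51 ± 0.15. Xcl1 (lymphotactin), which attracts cross-presenting dendritic cells, was at 2.16, 2.49 and 2.43 against 985, 568 and 1227, a change of -8.04 ± 0.34 (limma adjusted p = 5.3e-05). Ccl4 was at 27.0, 16.2 and 15.8 against 490, 272 and 962. In LP TR these 3 chemokines were thus low in every library, and the spread lay within LP SP.

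Of the killing machinery, Nkg7, a granule membrane protein, was at 923, 940 and 310 against 5162, 5654 and 5372, a log2 change of -3.06 ± 0.39 (limma adjusted p = 0.0041). Ctsw, a cathepsin of cytotoxic cells, was at 714, 736 and 509 against 3418, 3709 and 3867. Fasl, the death ligand, was at 124, 241 and 25.6 against 2425, 2846 and 2041, so that LP TR 3 was the lowest library for both Nkg7 and Fasl. Gzmk fell by 5.40 ± 0.83 on the log2 scale, Slamf7 fell by 2.87 ± 0.42, and the log2 change of Serpinb9 was -1.81 ± 0.20. Prf1, perforin, was at 29.2, 27.4 and 4.87 against 103, 210 and 271, and lost its call without LP SP 2 or LP SP 3, with adjusted p up to 0.091. Gzma (log2 change -0.20), Gzmb (1.20) and Gzmc (0.61) did not pass, with adjusted p of 0.82, 0.17 and 0.78. The granule proteoglycan Srgn was the member that rose, by 0.80 ± 0.10. The summed γδ and innate lymphoid markers, given above, were also higher in LP SP.

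Of the leading genes with a promoter in the RefSeq table for GRCm38.p6, 4 are shown for the motif they carry. Each is the 250 bases before the annotated start, 5′ to 3′ on the gene's strand, with matches in capitals on either strand. The motifs searched were GTAAACA for forkhead factors, GGTGTGA for T-box factors, TGTGGTT for RUNX factors, TGANTCA for AP-1, TGACGTCA for the cyclic-AMP response element and GGGANTTCC for NF-kB. No 2 of the motifs overlap in these 4 windows. Areg lies at chr5:91139599-91148432 on the plus strand, and its promoter has a cyclic-AMP response element beginning 61 bases before the start.
Areg, chr5:91139349-91139598, plus strand: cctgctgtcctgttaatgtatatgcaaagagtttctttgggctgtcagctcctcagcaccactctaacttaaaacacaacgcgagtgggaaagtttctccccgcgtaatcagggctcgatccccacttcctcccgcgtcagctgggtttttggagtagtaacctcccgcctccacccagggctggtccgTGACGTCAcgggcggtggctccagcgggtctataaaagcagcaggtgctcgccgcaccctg
Sdc4, chr2:164443189-164443438, minus strand, with an NF-kB motif 81 bases before the start: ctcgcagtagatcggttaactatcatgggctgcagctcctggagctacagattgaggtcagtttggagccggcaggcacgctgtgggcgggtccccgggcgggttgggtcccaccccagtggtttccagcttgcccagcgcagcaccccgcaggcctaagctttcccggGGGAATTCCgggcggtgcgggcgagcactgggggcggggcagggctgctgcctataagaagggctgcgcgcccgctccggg
Xcl1, chr1:164935523-164935772, minus strand, with a T-box motif 188 and a RUNX motif 228 bases before the start: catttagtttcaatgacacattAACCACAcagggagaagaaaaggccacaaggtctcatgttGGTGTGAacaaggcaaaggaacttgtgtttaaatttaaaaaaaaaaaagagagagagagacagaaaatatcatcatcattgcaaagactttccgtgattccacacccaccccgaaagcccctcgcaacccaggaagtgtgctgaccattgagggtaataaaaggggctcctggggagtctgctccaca
Nkg7, chr7:43436888-43437137, plus strand, with a T-box motif 13 bases before the start: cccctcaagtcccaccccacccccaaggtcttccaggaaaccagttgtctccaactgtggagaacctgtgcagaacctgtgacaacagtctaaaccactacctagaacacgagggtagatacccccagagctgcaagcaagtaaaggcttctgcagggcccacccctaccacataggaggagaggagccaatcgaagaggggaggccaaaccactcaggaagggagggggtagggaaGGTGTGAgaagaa

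These matches describe the letters and are not evidence of binding. Their shares among the called genes are given as descriptions, with no test. The T-box motif was in 3.20% of the 469 promoters of higher genes and 2.43% of the 370 of lower genes, against 2.92% for all genes tested and 3.33% for the whole table. The forkhead motif was in 2.35%, 2.16%, 2.21% and 3.17%, in the same order. AP-1 was in 6.61%, 4.59%, 4.34% and 6.75%, RUNX in 4.26%, 4.05%, 3.30% and 4.40%, the cyclic-AMP response element in 1.07%, 2.70%, 2.75% and 1.55%, and NF-kB in 1.49%, 0.811%, 2.00% and 1.43%. Of the 118 genes the naming rule picked, 79 have a promoter in the table. Among these, the T-box motif was also in Cd160, which fell, and in Gpr83 and Itga4, which rose.

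**Figure D3:**
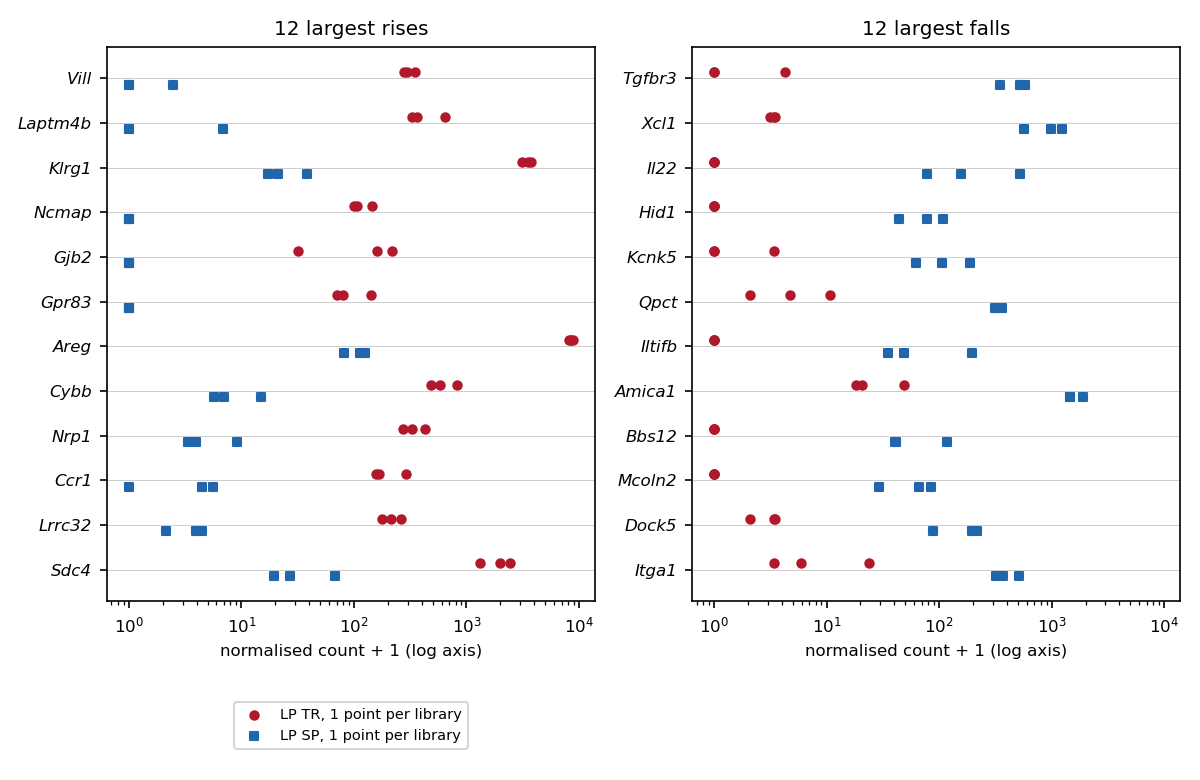
Normalised count plus 1 (horizontal log axis) in each LP TR library (circles) and LP SP library (squares) for the 12 largest rises (left) and the 12 largest falls (right) by log2 change. The groups are separated for every gene, and the falls include Il22, Hid1, Iltifb, Bbs12 and Mcoln2, which were at 0 in all 3 LP TR libraries.

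Genes of intraepithelial and CD8 T cells fell in 5 of 15 cases tested (33.3%, against 2.88% of all genes) and rose in 1 (6.67%, against 3.80%). Their median log2 change was -2.01, and 4 to 6 fell when 1 library was left out. Cd160, a receptor for the TNF receptor family member HVEM, was at 134, 106 and 99.8 in LP TR and 1754, 1735 and 1288 in LP SP, a log2 change of -3.80 ± 0.19 (limma adjusted p = 1.2e-04). Amica1 (JAML), which binds the junctional protein CAR on epithelium, was at 19.5, 17.4 and 47.5 against 1903, 1459 and 1458. Cd244 (2B4) was at 2.16, 12.4 and 4.87 against 233, 88.8 and 147. Itga1, the collagen-binding chain of VLA-1, was at 22.7, 4.97 and 2.43 against 322, 372 and 511, so that Cd244 and Itga1 were at no more than 22.7 in LP TR. Runx3, the factor that promotes the CD8 and cytotoxic programme, had the smaller log2 change of -0.92 ± 0.20, from 1012, 725 and 1010 in LP SP to 579, 395 and 474 in LP TR. It lost its call without LP SP 1, LP SP 3, LP TR 2 or LP TR 3, with adjusted p of 0.096 to 0.12. Itgae, the αE chain that binds E-cadherin, was the member that rose (0.53 ± 0.12), and lost its call whichever library was left out. Cd8b1 was at 140, 190 and 121 against 85.5, 82.9 and 76.5 (adjusted p = 0.092), and the NK receptors Klrd1, Klrk1, Klrc1 and Klrb1c did not pass.

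Of 13 genes of CD4 helper identity tested 3 rose (23.1%, against 3.80% of all genes) and 1 fell (7.69%, against 2.88%), with a median log2 change of -0.04. Cd4 itself was at 616, 619 and 567 in LP TR and 717, 1341 and 1044 in LP SP (log2 change -0.74, adjusted p = 0.10), and Zbtb7b (ThPOK), the factor that holds CD4 lineage identity, at 88.7, 162 and 65.7 against 101, 73.1 and 38.3 (adjusted p = 0.55). Cd40lg, the ligand by which helper cells license B cells and dendritic cells, was the member that fell. It was at 64.9, 79.6 and 57.2 in LP TR and 710, 1223 and 979 in LP SP, a log2 change of -3.81 ± 0.25 (limma adjusted p = 2.6e-04). Cd2, Cd5 and Tox rose, Tox losing its call without LP TR 1 (adjusted p = 0.054). With 1 library left out 2 to 3 were called higher and 1 to 2 lower.

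Th1 genes fell in 7 of 16 cases tested (43.75%, against 2.88% of all genes) and rose in 3 (18.75%, against 3.80%). Their median log2 change was -0.43. Ifng was at 34.6, 51.0 and 8.52 in LP TR and 948, 1150 and 1175 in LP SP, a log2 change of -5.39 ± 0.57 (limma adjusted p = 0.0020). Tbx21 (T-bet), the transcription factor that drives it, was at 44.4, 47.3 and 43.8 against 176, 384 and 387, a change of -2.69 ± 0.34. Il12rb2, the signalling chain of the interleukin-12 receptor, was at 48.7, 83.3 and 32.9 against 690, 593 and 931. Il2, Il18r1, Bhlhe40 and Tnf fell too, with Bhlhe40 losing its call when LP SP 2, LP SP 3, LP TR 1 or LP TR 2 was left out, and Tnf likewise, with adjusted p up to 0.079 for Bhlhe40. Members that rose include both chains of the interferon-γ receptor. Ifngr2, the limiting receptor chain, was at 202, 163 and 234 against 41.0, 20.9 and 34.8, and Ifngr1 was at 14307, 13364 and 12968 against 7842, 6922 and 7814. Eomes, Il12rb1, Il18rap, Stat4 and Cxcr3 did not pass.

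Interleukin-22, which acts on epithelium to raise its defences, was found only in LP SP among these 6 libraries. Of 10 Th17 and interleukin-22 genes tested 2 fell (20.0%, against 2.88% of all genes) and 0 rose. Il22 was at 0 in all 3 LP TR libraries and at 526, 76.9 and 154 in LP SP. Its LP SP mean, to which LP SP 1 gave the most, was 71.2-fold the LP TR floor of 3 reads per library. Iltifb, a near-identical copy of Il22 between which reads may be divided, was also at 0 in LP TR, with 196, 34.3 and 47.5 in LP SP, so the pair is best read as 1 signal. LP SP 1 was the highest library for both. Il22 is also made by innate lymphoid and γδ T cells, whose summed markers were higher in LP SP as given above. Il17a, Il17f and Il23r were too low to be tested. Il21 fell (1.22 to 11.2 against 24.6 to 63.8) and lost its call under 7 of the 20 alternatives. Of 6 Th2 and interleukin-9 genes tested 3 rose, against 3.80% of all genes, and 0 fell. The risers were Il1rl1, Gata3 and the interleukin-25 receptor Il17rb (56.0 to 105 against 4.64 to 7.03). Il4 did not pass (log2 change -2.69, adjusted p = 0.090), and Il5, Il13 and Il9 were too low to be tested. Fits without 1 library called 2 to 4 genes of this list higher.

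**Figure D4:**
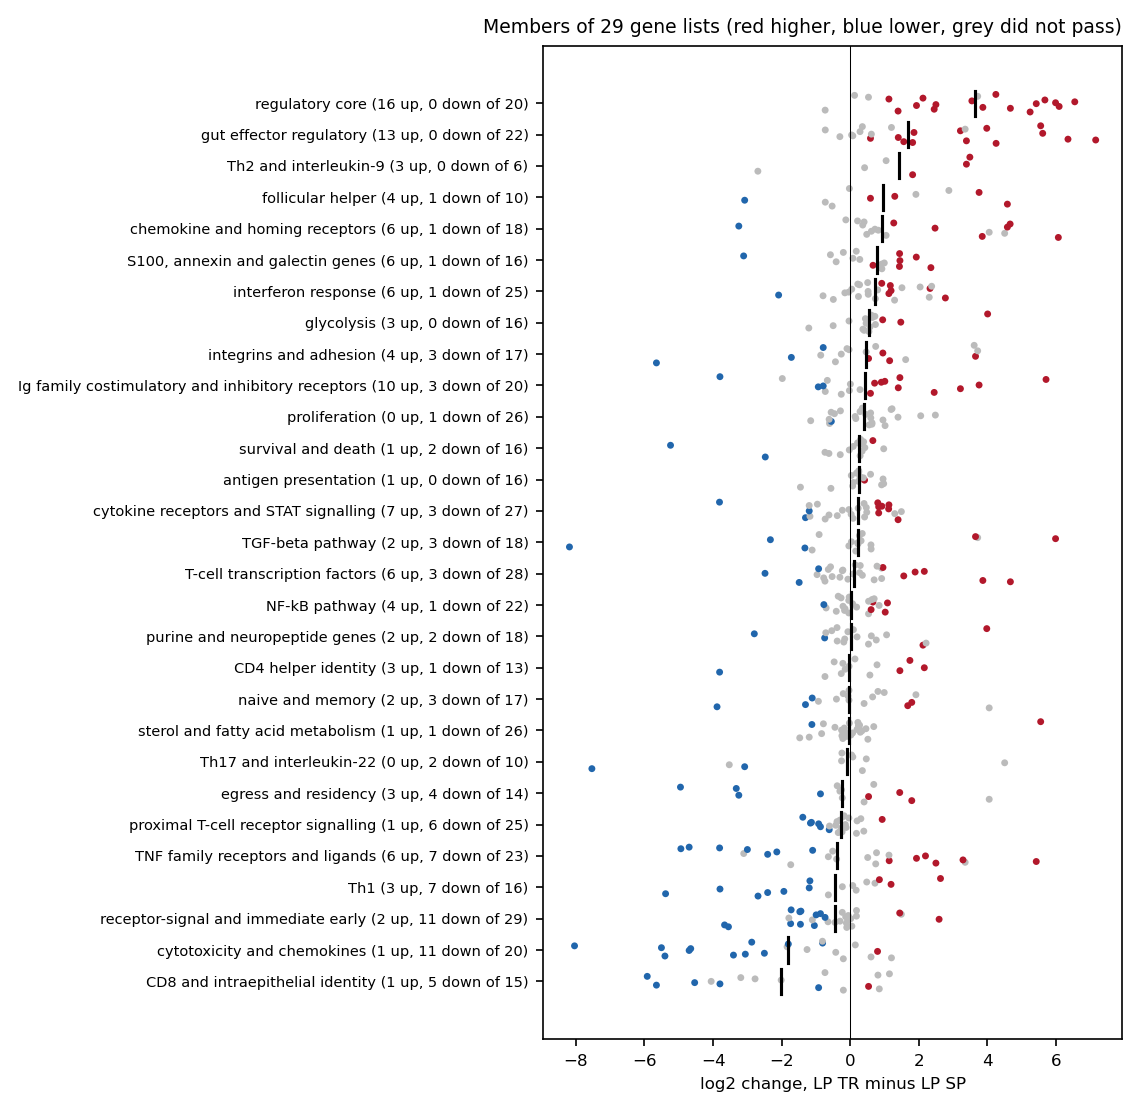
Log2 change between LP TR and LP SP (horizontal axis) for the tested members of 29 gene lists, 1 point per gene, red where higher, blue where lower and grey where the gene did not pass, with the median as a black bar. The list of regulatory core genes, which includes the sort marker Foxp3 here, has the highest median at 3.63, and the list of CD8 and intraepithelial identity the lowest at -2.01.

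Of 23 TNF family genes tested 6 rose and 7 fell (26.1% and 30.4%, against 3.80% and 2.88% of all genes). A division between receptors and ligands was noticed after the values were seen and was not tested. All 6 genes that rose were receptors: Tnfrsf4, Tnfrsf9, Tnfrsf18, Cd27, Tnfrsf10b and Tnfrsf13b. All 7 that fell were ligands: Tnf, Fasl, Cd40lg, Tnfsf8, Tnfsf11, Tnfsf13b and Tnfsf14. Cd27, the receptor for CD70, was at 756, 873 and 912 in LP TR and 216, 151 and 191 in LP SP, a log2 change of 2.19 ± 0.18 (limma adjusted p = 6.7e-04). Tnfsf14 (LIGHT), which like Cd160 binds HVEM, was at 5.41, 21.1 and 8.52 against 425, 322 and 282, a change of -4.94 ± 0.46. The 10 members that did not pass include the receptors Tnfrsf1a, Tnfrsf1b and Fas and the ligands Lta, Ltb and Tnfsf10. With 1 library left out 5 to 7 genes were called higher and 5 to 7 lower, Tnf, Tnfsf8, Tnfsf13b and Tnfrsf13b being those that lost their call under at least 1 omission. These were LP TR 1 or LP TR 2 for Tnf and Tnfsf8, LP SP 2 or LP SP 3 for Tnf and Tnfsf13b, and LP TR 3 for Tnfrsf13b.

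Immunoglobulin-family costimulatory and inhibitory receptors rose in 10 of 20 cases and fell in 3, against 3.80% and 2.88% of all genes. However, only 5 to 7 were called higher and 1 to 3 lower when 1 library was left out. Ctla4, Havcr2 (TIM-3), Tigit and Cd80 kept their call under every alternative. Cd80, itself a ligand of Ctla4, was at 87.6, 39.8 and 68.2 in LP TR and 0, 0.75 and 0 in LP SP. Havcr2 was at 125, 75.9 and 240 against 12.9, 8.21 and 22.02. The fallers were Cd160, Cd96 and Cd226, and the last 2 bind the same nectin ligands as Tigit. Cd96 fell by 0.93 ± 0.17 and Cd226 by 0.79 ± 0.16 on the log2 scale, and both lost their calls when any 1 of the 3 LP TR libraries was left out, Cd226 also without LP SP 1 or LP SP 2. Pdcd1, Lag3, Btla, Cd28 and Cd86 did not pass.

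Receptors that direct cells into tissue rose in 6 of 18 cases and fell in 1 (33.3% and 5.56%, against 3.80% and 2.88% of all genes). Ccr2, the receptor for monocyte chemoattractant proteins, was at 7474, 5810 and 4070 in LP TR and 262, 600 and 373 in LP SP, a log2 change of 3.85 ± 0.32 (limma adjusted p = 7.3e-04). Ccr1, a receptor for Ccl5, was at 168, 155 and 290 against 3.51, 0 and 4.64. Gpr15, a homing receptor of gut regulatory cells, was at 401, 183 and 438 against 12.9, 17.2 and 6.95. Gpr183 rose by 1.27 ± 0.17, and Cxcr5, at 34.6, 72.1 and 76.7 against 1.17, 0 and 5.80, lost its call without LP TR 2 or LP TR 3 (adjusted p = 0.061 and 0.059). Cxcr6, linked to tissue retention, was the member that fell, at 490, 344 and 329 against 3790, 3440 and 3688, a log2 change of -3.25 ± 0.17 (limma adjusted p = 1.2e-04). Ccr9, the small-intestinal homing receptor, did not pass (log2 change 0.82, adjusted p = 0.058), and Ccr4, Ccr6, Ccr7, Ccr8 and Cxcr3 did not either.

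Integrin and adhesion genes rose in 4 of 17 cases and fell in 3 (23.53% and 17.65%, against 3.80% and 2.88% of all genes). With 1 library left out 2 to 4 were called higher, 2 without any 1 LP TR library, and 1 to 3 lower, 1 without LP TR 1 or LP TR 2. Itgav, the αV chain that joins with β8 to release active TGF-beta, was at 2647, 2089 and 2181.7 in LP TR and 144, 180 and 231 in LP SP, a log2 change of 3.65 ± 0.20 (limma adjusted p = 1.4e-04). Itga4, which pairs with β7 for gut homing, rose by 1.15 ± 0.13, and Itga1 and Itgal fell, Itgal losing its call without LP TR 1 or LP TR 2 (adjusted p = 0.055 and 0.051). Itgb7, Itgb1 and Itgb2 did not pass.

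The TGF-beta pathway had 2 genes higher, Lrrc32 and Itgav, and 3 lower of 18 tested (11.1% and 16.7%, against 3.80% and 2.88% of all genes). Tgfbr3, the betaglycan co-receptor, showed the largest fall of all genes tested, at 3.25, 0 and 0 in LP TR and 579, 348 and 520 in LP SP, a log2 change of -8.19 ± 0.60 (limma adjusted p = 4.5e-04). Furin, a protease that cleaves pro-TGF-beta, was at 1398, 1188 and 875 against 6260, 5448 and 5413, a change of -2.33 ± 0.18. Tgfbr2, the ligand-binding receptor, fell by 1.32 ± 0.26 and lost its call without LP TR 1 or any one of the LP SP libraries. Tgfb1, Tgfbr1 and Smad2, Smad3, Smad4 and Smad7 did not pass.

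Genes of naive and memory cells rose in 2 of 17 cases and fell in 3 (11.76% and 17.65%, against 3.80% and 2.88% of all genes). Survival genes rose in 1 of 16 and fell in 2 (6.25% and 12.5%). Tcf7 (TCF1), a factor of naive and stem-like T cells, was at 64.9, 70.9 and 48.7 in LP TR and 832, 999 and 911 in LP SP, a log2 change of -3.89 ± 0.21 (limma adjusted p = 1.2e-04). Lef1, its close relative, moved the other way, at 516, 507 and 360 against 132, 144 and 150, a change of 1.68 ± 0.20. Il7r, the interleukin-7 receptor, fell by 1.31 ± 0.14, and Bcl2, which interleukin-7 sustains, was at 63.8, 147 and 156 against 363, 709 and 1004, losing its call without LP SP 2 or LP SP 3 (adjusted p = 0.064 in both). The pro-apoptotic Bik was at 0, 0 and 1.22 against 30.5, 66.4 and 55.6. The STAT-induced kinases Pim1 and Pim2 moved apart, Pim1 rising by 0.80 ± 0.12 and Pim2 falling by 3.81 ± 0.62 on the log2 scale. Among the cytokine receptor and STAT genes 7 of 27 rose and 3 fell (25.9% and 11.1%), but 1 to 4 were called higher when 1 library was left out. The naive and memory genes then had 1 to 3 higher and 2 to 3 lower, and the survival genes 0 to 1 higher and 1 to 2 lower.

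Immediate early and receptor-induced genes fell in 11 of 29 cases (37.9%, against 2.88% of all genes) and rose in 2 (6.90%, against 3.80%). Their median log2 change was -0.44, with 9 to 11 falls when 1 library was left out. Nr4a2, an orphan nuclear receptor induced by antigen, was at 95.2, 83.3 and 223 in LP TR and 2105, 800 and 1736 in LP SP, a log2 change of -3.55 ± 0.46 (limma adjusted p = 0.0044). Its relatives Nr4a1 (log2 change -0.10) and Nr4a3 (0.05) did not pass. Btg2, an anti-proliferative gene, was at 2337, 3617 and 2967 against 7486, 10691 and 11303. Fos fell by 1.45 ± 0.18 and Fosb by 1.74 ± 0.24, and the heat-shock genes Hspa1a and Hspa1b, near-identical copies, by 1.47 ± 0.22 and 1.44 ± 0.21. Rgs1, which dampens chemokine signals, fell by 0.87 ± 0.11 from a level of 19759 to 24238 in LP SP. The 2 that rose were Dusp4 (2.59 ± 0.30), which was not called in the fits over 9, 15 or 18 libraries, and Rgs2 (1.44 ± 0.26), Rgs2 losing its call without LP SP 1 or LP SP 2.

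Of 28 T-cell transcription factors 6 rose and 3 fell (21.4% and 10.7%, against 3.80% and 2.88% of all genes). Beside Ikzf2, Ikzf4, Maf and Tox these were Nfil3 and Hif1a, higher, and Runx3, Zeb2 and Ikzf1, lower. Ikzf1 (Ikaros) was at 531, 454 and 352 in LP TR and 1511, 1146 and 1091 in LP SP, a log2 change of -1.49 ± 0.20 (limma adjusted p = 0.0050), opposite to its relatives Ikzf2 and Ikzf4. Hif1a lost its call in the fits over 9, 15 and 18 libraries and without LP SP 2, LP SP 3, LP TR 1 or LP TR 2 (adjusted p = 0.051 to 0.072). Zeb2 lost it without LP SP 1 or LP TR 3 (adjusted p = 0.057 and 0.059), and Nfil3 without LP SP 3 (adjusted p = 0.056) and in the fit over 18 libraries (adjusted p = 0.41). With 1 library left out 4 to 6 were called higher and 1 to 3 lower, the fewest lower without LP TR 3. Follicular helper genes rose in 4 of 10 cases (Cxcr5, Icos, Cd200 and Sh2d1a) and fell in 1 (Il21), against the same 3.80% and 2.88% of all genes. Fits without 1 library called 1 to 4 of them higher. Sh2d1a (SAP) kept its call under every alternative, at 1642, 1808 and 1404 against 674, 676 and 613.

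Proximal T-cell receptor signalling genes fell in 6 of 25 cases (24.0%, against 2.88% of all genes), Fyn, Themis, Ptpn6 and Ptpn22 among them. In this list 1 rose (Sla, 4.0%, against 3.80%), and 2 to 4 were called lower when 1 library was left out. Fyn lost its call whichever library was left out, and Ptpn6 when any library but LP SP 1 was left out. Themis lost it without LP SP 1, LP SP 2, LP TR 1 or LP TR 2, and Sla without LP TR 1 or LP TR 2. Ptpn22, a phosphatase that restrains the receptor, fell by 1.13 ± 0.14 on the log2 scale. The CD3 chains, Lck, Zap70 and Lat did not pass. In the NF-kB pathway 4 of 22 rose and 1 fell (18.18% and 4.545%, against 3.80% and 2.88% of all genes). Of these only Birc2 (1.08 ± 0.14) held its call under every omission. Tnfaip3, the inhibitor A20, was the member that fell, by 0.77 ± 0.17.

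Interferon-response genes rose in 6 of 25 cases and fell in 1 (24.0% and 4.0%, against 3.80% and 2.88% of all genes). Their median log2 change was 0.73, with 5 to 7 higher when 1 library was left out. Ifi27l2a was at 7766, 8298 and 6109 in LP TR and 1429, 1019 and 844 in LP SP, a log2 change of 2.77 ± 0.21 (limma adjusted p = 4.5e-04). Oas1a, an RNA-sensing enzyme, was at 672, 918 and 695 against 171, 117 and 167, and Bst2 (tetherin) rose by 1.17 ± 0.14. Isg15, Mx1, Irf7 and Ifit1, Ifit2 and Ifit3, also standard members of the response, did not pass. S100, annexin and galectin genes rose in 6 of 16 cases and fell in 1 (37.5% and 6.25%). With 1 library left out 3 to 5 were called higher, 3 without LP SP 1, LP TR 1 or LP TR 2. S100a11 lost its call in 13 of the 20 alternatives, whichever library was left out among them, and S100a6 in 9. S100a10 rose by 1.43 ± 0.13 and Anxa4 by 1.45 ± 0.16, and the galectins went in both directions. Lgals1 was at 3772, 3501 and 2373 against 833, 1265 and 541, while Lgals3 was at 32.5, 31.1 and 20.7 against 192, 210 and 366.

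Purine and neuropeptide genes rose in 2 of 18 cases (Entpd1 and Penk) and fell in 2 (Cd38 and Pde3b). Each was 11.1% of the list, against 3.80% and 2.88% of all genes. Cd38 lost its call without any 1 LP TR library (adjusted p = 0.054 to 0.059). Fits without 1 library called 1 to 3 higher and 1 to 2 lower. Among the called genes, Pde3b, a phosphodiesterase that degrades cyclic AMP, was at 144, 121 and 124 in LP TR and 1186, 764 and 816 in LP SP, a log2 change of -2.80 ± 0.21 (limma adjusted p = 4.5e-04). Entpd1 (CD39), which starts the breakdown of extracellular ATP, rose by 2.12 ± 0.45 and lost its call without any of the 3 LP TR libraries or LP SP 1. Nt5e (CD73), the next enzyme, did not pass (log2 change 0.53, adjusted p = 0.087). Of the metabolic lists, glycolysis had 3 higher of 16 (18.75%, against 3.80% of all genes). These were Tpi1, Pgk1 and Slc16a3, and between 1 and 4 were called higher with 1 library left out. Sterol and fatty acid metabolism had 1 higher and 1 lower of 26 (0 to 1 and 0 to 2 with 1 library left out). Each was 3.85% of the list, near the 3.80% and 2.88% of all genes. Proliferation genes had 0 higher and 1 lower (Ccnd2, 3.85% of the list against 2.88% of all genes) of 26. Ccnd2 lost its call when any library but LP SP 1 was left out (adjusted p = 0.051 to 0.071), and Mki67 (log2 change 1.02, adjusted p = 0.40) and Top2a (0.55, adjusted p = 0.57) did not pass. In antigen presentation only B2m, 50509 to 54699 against 35945 to 42679, passed of 16 genes (6.25%, against 3.80% of all genes called higher). B2m lost its call when LP SP 3 or any LP TR library was left out. With all 6 libraries kept, it also lost it with quantile scaling (limma adjusted p = 0.43) and with edgeR.

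Genes of egress and residency had 3 higher and 4 lower of 14 tested (21.4% and 28.6%, against 3.80% and 2.88% of all genes). With 1 library left out 0 to 2 were called higher, 0 without LP SP 2, and 4 lower. Litaf, which acts in endosomes, was at 234, 525 and 268 in LP TR and 2820, 2527 and 4669 in LP SP. Cdh1 (E-cadherin), the ligand of both Klrg1 and the αE integrin, is carried by gut lymphocytes as well as by epithelium. It was at 3.25, 7.46 and 3.65 in LP TR and 184, 93.3 and 283 in LP SP, a log2 change of -4.95 ± 0.49 (limma adjusted p = 0.0016). In the same LP SP libraries the epithelial markers Krt19, Apoa1, Apoa4 and Muc2 were at 0, while Epcam was at 65.6, 25.4 and 88.1, Krt18 at 7.03, 11.9 and 20.9 and Vil1 at 24.6, 0 and 4.64. Epcam was at 176, 157 and 254 in LP TR and did not pass (adjusted p = 0.057). The part of epithelial RNA in the Cdh1 values was not tested. Klrg1 rose and Cdh1 fell between the same groups, so their opposite levels across the 6 libraries follow from these calls. A link between the genes was not tested.

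The same sorts made from the epithelium (IEL TR and IEL SP, 3 libraries each) did not enter the fit and give the levels of these genes in other libraries. Of the 12 largest rises, 10 had all IEL TR libraries above all IEL SP libraries, Ccr1 and Lrrc32 overlapping, and of the 12 largest falls 10 were on the same side, Il22 and Iltifb overlapping. Over the named genes called, without Foxp3, this held for 54 of 63 higher and 40 of 50 lower genes, and 0 were on the other side. Over all genes tested, IEL TR lay above IEL SP without overlap in 13.4% and below it in 11.4%. Ikzf2 was at 10250 to 11300 in IEL TR and 274 to 447 in IEL SP, and Tgfbr3 at 0.87 to 2.75 against 738 to 808. Some levels differed between the compartments within Foxp3+ cells. Areg was at 448 to 1296 in IEL TR, below the 8130 to 8853 of LP TR, and Il10 at 74.9 to 456, below 684 to 1459. Ctla4, Tnfrsf4, Ccr2 and Itgav were likewise lower in each IEL TR library than in each LP TR library. These differences between compartments are given as levels and were not tested.

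The CD4+CD8α+ cells of the lamina propria (LP DP, 3 libraries) give a further set of levels. Ccl5 was at 28270 to 37570 in LP DP, above the 6702 to 9475 of LP SP, and Nkg7 at 8332 to 8780. Cd244 was at 720 to 902 and Ccl4 at 2147 to 2722, also above each LP SP library. Maf was at 219 to 315 in LP DP, below the 1167 to 1646 of LP SP, and Tnfrsf4 at 32.0 to 101, below 809 to 1183. Il22 was at 0 to 13.4 in LP DP, so among lamina propria cells its higher levels were in LP SP.

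**Figure D5:**
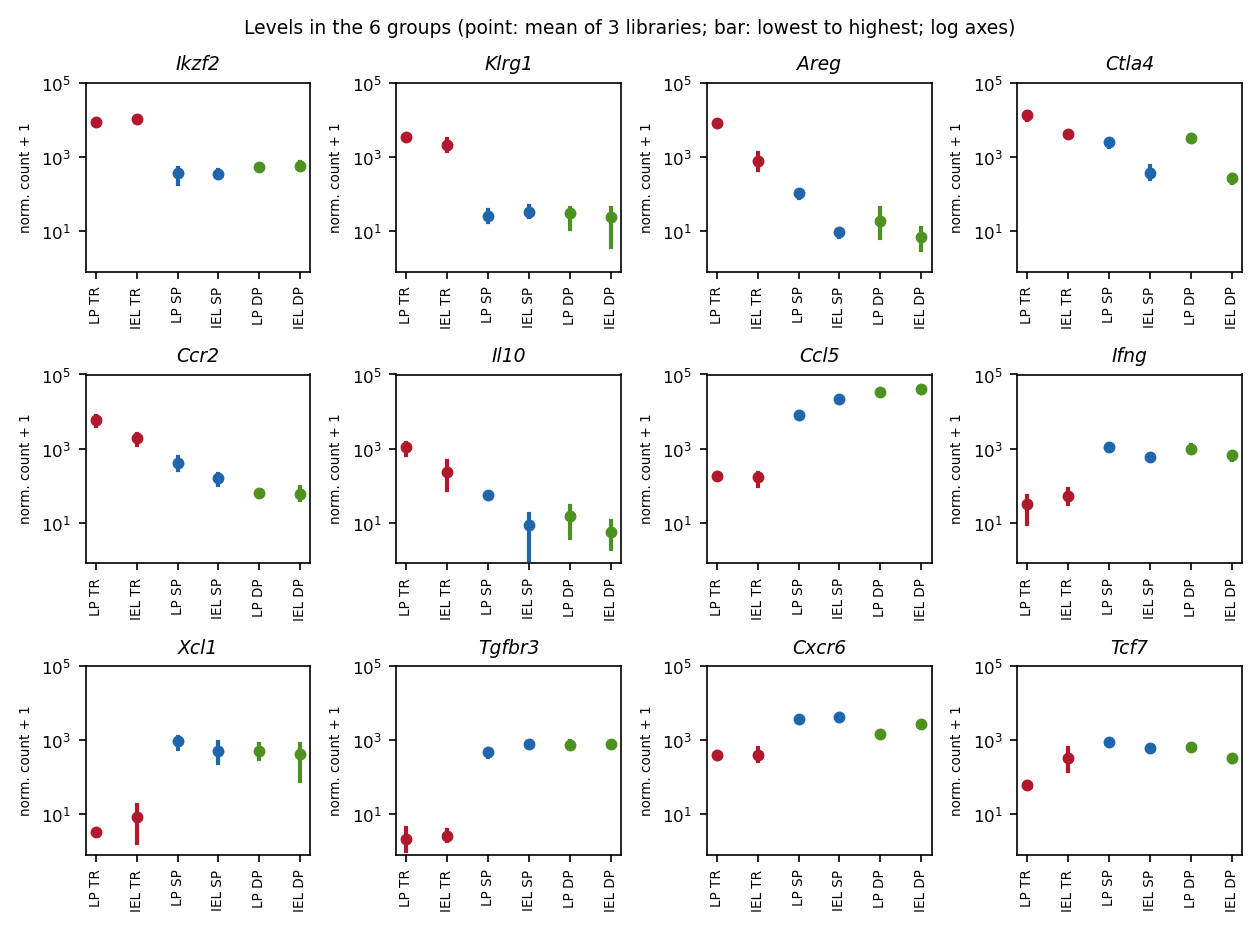
Normalised count plus 1 (vertical log axes) of 12 genes in the 6 groups, with the mean of 3 libraries as a point and the lowest to highest library as a bar. Both Foxp3+ groups (red) are above the CD4-only groups (blue) and the CD4+CD8α+ groups (green) for Ikzf2 and Klrg1 and below them for Ccl5, Xcl1 and Tgfbr3.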

How the data were processed

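RNA from sorted cells was sequenced after Nextera XT library preparation, per the labels' protocols. TopHat, HTSeq and the mm10 build are named in the submitters' processing notes, without versions. The authors deposited a signal for each gene, a normalised count whose values are whole multiples of 1 step per library (100% of values within 0.1 of a step), so that the reads could be recovered. How the factors were computed is not given in the sources used here. Floors cover counting error only, since PCR reads are not independent molecules.

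Gene positions came from GENCODE M21 (36639 of 38392 identifiers matched). The main fit was limma 3.58.1 in R 4.3.3 with trended, robust variance on log2(normalised count + 1) over the 6 libraries, on genes at 10 or more in at least 3, with Benjamini-Hochberg adjustment over 13886 genes and a threshold of 0.05. Adjusted p-values given without another setting are from it. A log2 change is on this scale and understates the change of low genes. Exact permutation tests of 3 against 3 libraries could not reach 0.05, and none was run.

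Named genes were a fixed set of 10, the 12 largest changes per direction where the higher group averaged 50 or more and the libraries did not overlap (without predicted genes, pseudogenes, ribosomal protein genes, small RNAs and receptor segments), the 6 most abundant per direction with a log2 change of at least 1, and for each of 29 lists the called genes among the 4 smallest p. Other list members were named after their values were seen. The members and lists were chosen with earlier results of these data known. Alternatives included edgeR 4.0.16 and DESeq2 1.42.0 on the recovered reads. Counts are not strand-aware as far as the sources used here say, so overlapping and antisense genes cannot be told apart. Some members of the lists, counted with their list, are not reported here by name.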

Additional observations from a re-analysis of the deposited data

How the results depend on the processing

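With 20 alternatives, 0 of the named genes or called list members changed direction, and 107 of 175 called ones kept their call under every alternative, while 62 lost it in at least 1 fit that left out a library. Of the 927 called genes 302 were called in every alternative. The total rose by more than 1.5 times with DESeq2 on the recovered reads (1571 genes, 875 higher and 696 lower). It also did so with 15 libraries, all but IEL TR, in the fit (1445, of which 684 lower and 761 higher). The cause was not tested. Leaving out 1 library gave 506 to 682 genes, 264 to 428 higher and 198 to 286 lower, with fewer libraries in the fit. The total fell by more than 1.5 times without LP TR 1 (506), LP TR 2 (559), LP TR 3 (592) or LP SP 3 (557). edgeR called 885, TMM scaling 934, scaling to equal totals 894, quantile scaling 940 and library weights 1017. Pseudocounts of 0.25 and 5 gave 806 and 1036, no filter 1010 and a minimum of 50 gave 922. The 9 lamina propria libraries gave 1140 and all 18 gave 860. The same-numbered libraries were not treated as pairs: residuals of same-numbered libraries correlated at 0.040 to 0.080, each under the 0.1 used for pairing, and those of different numbers at -0.068 to -0.0035. With the replicate block the fit called 834 genes, 478 higher and 356 lower. Each of the 6 libraries correlated best with the library of its own number in the other group, as a hint from the data only. At this depth a gene at 0 in all libraries of a group allows up to 3 reads per library, and levels under about 10 normalised counts were not tested.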

Other observations

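Of the 927 called genes, 846 are annotated as protein-coding and 21 as processed pseudogenes, of which 18 were higher in LP TR. The genes tested held 10747 protein-coding genes and 1649 processed pseudogenes, and 3.80% of all genes tested were called higher. Reads of processed pseudogenes may come from their parent genes, so these are uncertain. Hid1, Kcnk5, Bbs12 and Mcoln2 are among the 12 largest falls and were at no more than 2.43 normalised counts in any LP TR library. Kcnk5, a potassium channel gene, was at 60.9, 187 and 104 in LP SP, and Mcoln2, an endolysosomal cation channel gene, at 28.1, 82.8 and 64.9. Qpct, which encodes glutaminyl cyclase, was at 1.08, 3.73 and 9.74 in LP TR and 362, 334 and 309 in LP SP. It was at 520 to 786 in LP DP, 460 to 564 in IEL SP and 408 to 758 in IEL DP, and at 0.87 to 3.15 in IEL TR, so that in these data the lowest library of the groups other than the Foxp3+ ones had 309 normalised counts.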
